A study of Mus musculus with 8 samples.

Results

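The S100 genes encode small calcium-binding proteins, and 9 of them were followed through the 8 libraries of a study of Sox9 progenitors in the embryonic mouse lung. The members were S100a1, S100a4, S100a6, S100a10, S100a11, S100a13, S100a14, S100a16 and S100g, taken by symbol, and each had 1 record in the deposited tables. They are 9 of 17 S100 symbols and of 23997 gene symbols in all, carried by 24487 records. The other 8 S100 symbols were read as a separate list.

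The transcription factor Sox9 marks the growing tips of the lung epithelium. Translating ribosome affinity purification (TRAP) recovers the mRNA on ribosomes of chosen cells, and in this study it used the ribosomal protein L10 and a label induced with tamoxifen. All libraries came from embryonic lung of strain C57BL/6. Wildtype lung gave 1 TRAP and 1 whole lung library at embryonic day 14 (E14) and 1 of each at E17. At E16, TRAP was done on wildtype and on Sox9-mutant lung, in 2 libraries per genotype. E13 also stands, unexplained, in the titles of the E16 libraries, and the series design calls the E14 reference a supernatant while its own label calls it whole lung. The sources used here do not say what drives the ribosome label, which part of Sox9 was altered or whether replicates were separate animals. The p-values therefore measure only the spread between these libraries.

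S100 proteins mostly work as dimers. Calcium binding to their paired EF-hand loops exposes a surface that holds other proteins, among them annexins, myosin and cell-surface receptors. They act inside cells on the cytoskeleton, membrane repair and calcium handling, and several are also released and act outside. In the lung, members of the family are known from airway epithelium, alveolar epithelium, fibroblasts and inflammatory cells. Most S100 genes lie side by side on 1 chromosome, and S100g lies on the X chromosome.

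Values are FPKM, the fragments per kilobase of transcript scaled by library size, so levels can be compared between genes. Differences are on the log2(FPKM + 1) scale, which understates the change of low genes. A difference passed where limma with Benjamini-Hochberg adjustment over all tested records gave an adjusted p under 0.05. From the deposited confidence bounds, between 9783768 and 21500523 fragments per library were inferred. The Sox9 record itself stood at 12.8 and 11.03 FPKM in the mutant libraries, below the 35.9 and 36.4 FPKM of the wild type. It read 63.9 and 68.5 FPKM in TRAP and 15.0 and 16.7 FPKM in whole lung at E14 and E17. The FPKM of a library summed to between 659798 and 1631259. Records under 200 bases held 53.5% of that sum in wild-type replicate 1, 37.7% in E17 TRAP and between 3.46% and 18.6% in the others.

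In mm10, the members of chromosome 3 lie in 2 blocks. The first holds S100a1 (chr3:90511034-90514330), S100a13 (chr3:90514435-90524581), S100a14 (chr3:90526849-90528835), S100a16 (chr3:90541223-90543151), S100a4 (chr3:90603770-90606045) and S100a6 (chr3:90612894-90614414). The second, 2906 kb further on, holds S100a11 (chr3:93520496-93526288) and S100a10 (chr3:93555117-93564645). S100g (chrX:162961992-162964599) lies inside the record of Ctps2, an enzyme of CTP synthesis on the opposite strand. The sources used here do not say whether the counting used strand, so reads of the 2 genes might not be told apart. Ctps2 read between 5.58 and 8.84 FPKM over the 8 libraries, and 7.09 and 6.43 FPKM in the mutant against 6.97 and 7.31 FPKM in the wild type.

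The 250 bases before the start of 4 members are shown, because S100a6, S100g and S100a11 are 3 of the members with the largest mutant differences and S100a4 is the member that did not pass there. Sequences are from RefSeq on GRCm38.p6, where 7 of the 9 members had an entry. S100a10 and S100a14 are named only. Capitals mark matches on either strand to the TATA box (TATAAA), the CCAAT box (CCAAT), the GC box (GGGCGG), the AP-1 motif (TGANTCA) or the core motif of SOX factors (ACAAT), and matches were allowed to overlap.
S100a6, chr3:90612644-90612893, plus strand: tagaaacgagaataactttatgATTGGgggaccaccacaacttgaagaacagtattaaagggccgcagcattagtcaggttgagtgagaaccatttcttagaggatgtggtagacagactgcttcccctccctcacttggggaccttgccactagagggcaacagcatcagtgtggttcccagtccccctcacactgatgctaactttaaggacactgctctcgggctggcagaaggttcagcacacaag
S100g, chrX:162964600-162964849, minus strand: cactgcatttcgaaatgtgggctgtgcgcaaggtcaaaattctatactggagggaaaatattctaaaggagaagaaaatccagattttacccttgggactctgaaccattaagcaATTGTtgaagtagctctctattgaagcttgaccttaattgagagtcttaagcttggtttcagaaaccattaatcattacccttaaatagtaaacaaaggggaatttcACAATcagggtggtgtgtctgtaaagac
S100a11, chr3:93520246-93520495, plus strand: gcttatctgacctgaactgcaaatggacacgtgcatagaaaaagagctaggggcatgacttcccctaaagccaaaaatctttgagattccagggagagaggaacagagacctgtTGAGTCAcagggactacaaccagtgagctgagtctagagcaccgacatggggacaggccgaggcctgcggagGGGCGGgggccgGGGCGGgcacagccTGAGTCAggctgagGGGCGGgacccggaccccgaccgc
S100a4, chr3:90603520-90603769, plus strand: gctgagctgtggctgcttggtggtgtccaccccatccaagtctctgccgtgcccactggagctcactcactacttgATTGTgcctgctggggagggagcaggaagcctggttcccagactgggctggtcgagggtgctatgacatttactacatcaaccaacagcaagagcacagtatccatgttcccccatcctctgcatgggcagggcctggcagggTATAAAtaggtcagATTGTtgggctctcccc

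The 4 windows differ in letters and in base composition. The S100a11 window held 3 GC boxes, beginning 64, 52 and 24 bases before the start, and 2 AP-1 matches at 136 and 38 bases. GC boxes were in 32.7% and AP-1 matches in 6.75% of the 32841 windows of the same length. The S100g window held the SOX core at 135 and 28 bases, a motif in 27.7% of windows. The S100a4 window held a TATA box at 31 bases (12.4% of windows) and the SOX core at 174 and 17 bases. The S100a6 window held 1 CCAAT box at 228 bases (33.9% of windows) and none of the other letters. Its GC content was 50%, against 38.4% for S100g, 60.0% for S100a11, 57.2% for S100a4 and a median of 52.4% over all windows. A match describes letters only.

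Across the libraries, S100a11 carried most of the S100 mRNA. The 9 members together summed to 431 FPKM in E14 TRAP and 416 FPKM in E14 whole lung. The sum was 1000.4 and 1019 FPKM in wild-type E16 TRAP, 1798 and 1818 FPKM in the mutant, 1379 FPKM in E17 TRAP and 1057 FPKM in E17 whole lung. S100a11 made up between 60.2% and 75.4% of this sum, and the top 3 members between 87.9% and 93.3%. S100a11 was first in every library. In the 6 wildtype libraries S100a10 was second, while in both mutant libraries S100a6 was second. S100a4, S100g and, at E14, S100a14 stood at the low end. Where a group had 2 libraries, the wild-type values of S100a16 and S100a6 overlapped, as did the mutant values of S100a10 with those of S100a14 and of S100a16, so the order of these neighbours did not exceed their spread.

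**Figure D1:**
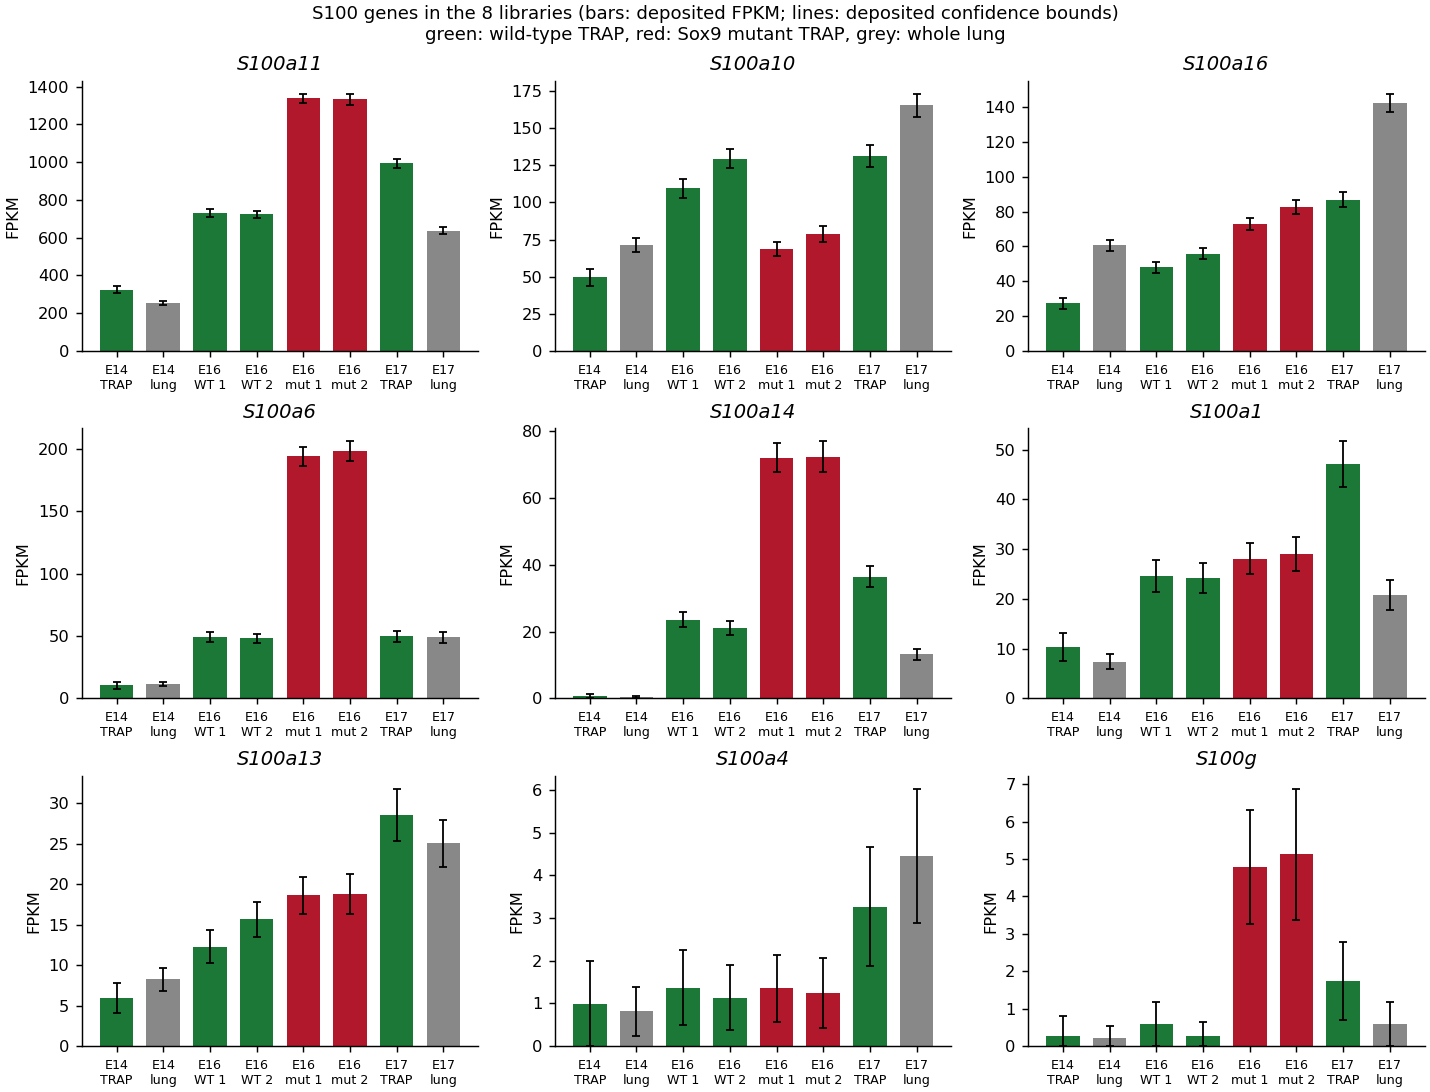
FPKM of each of the 9 S100 genes (vertical axes, each from 0) in the 8 libraries (horizontal axes); bars are the deposited values and lines the deposited confidence bounds. S100a6, S100a11, S100a14 and S100g are highest in the 2 mutant libraries, and the other 5 genes are highest at E17.

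The duplicated E16 libraries address how the mRNA on the ribosomes of the labelled cells differs with a Sox9 mutation. S100a6, S100a14, S100g and S100a11 rose most, S100a16, S100a13 and S100a1 rose less, S100a10 fell, and S100a4 did not pass. All 9 members entered the test, which kept records averaging at least 1 FPKM in the libraries of the fit. S100g entered only through the mutant libraries, so the filter set its direction. Of the 8 members averaging at least 1 FPKM in both groups, 6 rose and 1 fell. Among all such records 16.6% rose and 14% fell, and with the one-sided records included 17.4% rose and 14.3% fell. The median difference of the 8 members was 0.49, against 0.0067 over all such records. The members were chosen with earlier results of these data known, so this contrast is not independent.

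S100a6 (calcyclin) binds annexins and the ubiquitin ligase adaptor Cacybp, and is known from proliferating epithelial cells and fibroblasts. It had wild-type values of 49.3 and 48.1 FPKM and mutant values of 194 and 198 FPKM. The groups were far apart, and each group's libraries lay close together. The mean rose from 48.7 ± 0.827 to 196 ± 2.99 FPKM (SD, n = 2 each), a log2 difference of 1.99 (SE 0.05, limma adjusted p = 2.56e-05). The other 4 libraries read between 10.4 and 49.8 FPKM, so every wildtype library of any stage lay below both mutant ones.

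S100a14, a member found mainly in epithelia, had wild-type values of 23.6 and 21.1 FPKM and mutant values of 72.1 and 72.3 FPKM. Its mean rose from 22.3 ± 1.74 to 72.2 ± 0.189 FPKM (SD, n = 2 each), a log2 change of 1.65 (SE 0.07, limma adjusted p = 7.05e-05). E17 TRAP, the highest of the other libraries, read 36.5 FPKM.

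S100a11 binds annexins, chiefly annexins A1 and A2, and takes part in plasma membrane repair. It had wild-type values of 731 and 723 FPKM and mutant values of 1337 and 1332 FPKM, with no overlap. The mean rose from 727 ± 5.45 to 1335 ± 3.64 FPKM (SD, n = 2 each), a log2 change of 0.88 (SE 0.05, limma adjusted p = 0.000179). As S100a11 is the most abundant member, this was also the largest change in FPKM of the family. E17 TRAP read 994 FPKM.

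S100g is the small calbindin that carries calcium through the cytoplasm of intestinal and placental epithelium. It had wild-type values of 0.582 and 0.268 FPKM and mutant values of 4.79 and 5.13 FPKM. The wild-type values rest on 4 and 1.99 inferred fragments and the mutant values on 39.5 and 34.2. The log2 difference was 2.07 (SE 0.14, limma adjusted p = 0.000297), on means of 0.425 ± 0.223 and 4.96 ± 0.239 FPKM (SD, n = 2 each). Outside the mutant, its highest value was 1.74 FPKM in E17 TRAP, on 11 fragments.

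S100a16, a widely expressed member, had wild-type values of 48.0 and 55.8 FPKM and mutant values of 72.9 and 82.6 FPKM (log2 0.57, SE 0.09, limma adjusted p = 0.0073). S100a13, which takes part in the release of the growth factor Fgf1, had wild-type values of 12.3 and 15.7 FPKM and mutant values of 18.6 and 18.8 FPKM. Its log2 difference was 0.41 (SE 0.11, limma adjusted p = 0.0403). S100a1, known from heart muscle where it acts on calcium release and uptake, had wild-type values of 24.5 and 24.1 FPKM and mutant values of 28.1 and 29.1 FPKM (log2 0.22, SE 0.05, limma adjusted p = 0.0245). In these 3 genes the mutant libraries lay above both wild-type ones, and the E17 TRAP library lay above the mutant, at 86.7, 28.6 and 47.1 FPKM.

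S100a10 is the partner of annexin A2 in a membrane-bound complex and, unlike most of its relatives, does not bind calcium. It had wild-type values of 109.7 and 129.5 FPKM and mutant values of 68.7 and 78.7 FPKM. The mean fell from 119.6 ± 14.03 to 73.7 ± 7.03 FPKM (SD, n = 2 each), a log2 change of -0.69 (SE 0.10, limma adjusted p = 0.00481). It was the member that went against the rest. S100a4, which binds non-muscle myosin and marks some fibroblasts, had wild-type values of 1.37 and 1.13 FPKM and mutant values of 1.35 and 1.24 FPKM. The groups overlapped, and the log2 difference was 0.03 (95% interval -0.25 to 0.31, limma adjusted p = 0.86). It had a negative sign, -0.02, when libraries were centred on their medians. These 4 values rest on between 9.0 and 11.9 inferred fragments, and the FPKM + 1 scale understates changes this low. Limma-voom on inferred fragments gave 0.10 with an SE of 0.43, so a sizeable change of S100a4 could have been missed.

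**Figure D2:**
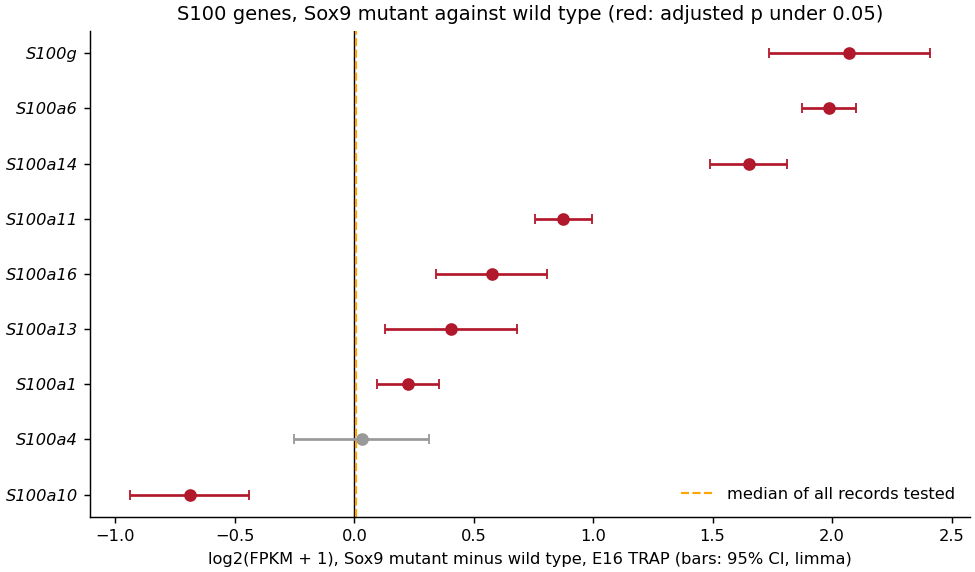
Log2(FPKM + 1) of the mutant minus the wild type at E16 (horizontal axis) for each of the 9 S100 genes; points are the fitted differences of 2 against 2 libraries, bars their 95% intervals and the dashed line the median of all tested records. S100g (2.07), S100a6 (1.99) and S100a14 (1.65) stand to the right, S100a10 (-0.69) lies left of 0, and S100a4 (0.03) is on the line.

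S100a13 and S100a1 had the highest adjusted p-values of the members that passed. Both calls were lost in most fits with 1 library left out. In these fits the log2 difference of S100a1 stayed between 0.20 and 0.25. That of S100a13 was 0.24 without wild-type replicate 1 and 0.57 without wild-type replicate 2. Without mutant replicate 1 or 2 it was 0.41 and 0.40. With all libraries set to a common total, short records included, S100a6 and S100g passed and the other 7 did not. Once short records were dropped before setting the totals, 7 members (S100g among them) were again higher and 1 lower, where 22.9% of all tested records were higher and 10.6% lower.

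Of the 8 members averaging at least 1 FPKM in both E16 groups, 3 had both mutant values above all 6 other libraries, S100a6, S100a11 and S100a14, against 13.6% of all such records. S100g, which entered through its mutant values, did so too. In S100a6 the mutant mean was 3.94 times the E17 TRAP value, in S100g 2.86 times, in S100a14 1.98 times and in S100a11 1.34 times. In S100a1, S100a4, S100a10, S100a13 and S100a16 it was between 0.397 and 0.896 times that value. The E16 and E17 libraries may differ in labelling, so these ratios were not tested.

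Lists of cell-type markers were read in the E16 groups too. Of all records averaging at least 1 FPKM in both groups, 16.6% rose and 14% fell. Of 9 proximal airway markers, 5 averaged at least 1 FPKM in both groups and 4 of these rose, while Muc5ac, Tff3 and Trp63 entered only through the mutant. The summed level of the 9 went from between 441 and 451 FPKM to between 1614 and 1836 FPKM, and without Scgb3a2 from between 305 and 320.1 FPKM to between 378 and 464 FPKM, with Tff3 at 0 in wild-type replicate 1 and Krt5 at 0 in mutant replicate 1. Of 7 alveolar type 2 markers, 6 averaged at least 1 FPKM in both groups, of which 3 rose and 1 fell, while Lamp3 entered only through the wild type. Their sum went from between 4057 and 4715 FPKM to between 1310 and 1573 FPKM, with none at 0. Without Sftpc it went from between 228 and 269 FPKM to between 1147 and 1397 FPKM. Of 7 alveolar type 1 markers 6 were tested, of which 1 rose and 2 fell, with sums of 278 to 284 and 261 to 348 FPKM. Of 10 epithelial markers 8 rose and 1 fell, with sums of 1710 to 1721 and 2270 to 2376 FPKM. Of 7 cardiac muscle markers 1 of 3 tested rose, with sums of 12.98 to 16.4 and 39.6 to 46.0 FPKM and Nppa at 0 in wild-type replicate 1 and both mutant libraries. Without Myh7 these sums were 11.6 to 15.2 and 11.1 to 12.6 FPKM. Of 5 mesothelial markers 2 averaged at least 1 FPKM in both groups and did not pass, and Msln entered only through the mutant. The 5 summed to 7.47 to 10.03 and 17.3 to 17.5 FPKM, and without Msln to 6.62 to 9.34 and 4.27 to 6.29 FPKM. Mesenchymal markers summed to 109 to 148 and 73.2 to 137 FPKM, and 1 of 10 rose and 1 fell, no more than among all such records. The part of these lists in the S100 differences was not tested, and in bulk libraries fewer cells of a type and less RNA per cell cannot be told apart.

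Neighbouring S100 genes did not share one mutant difference. In the first block, which spans 103 kb, the 6 members ranged from 0.03 in S100a4 to 1.99 in S100a6. Of the S100 genes only S100a5 lies between those 2. The S100a4 value rests on between 9.0 and 11.9 fragments per E16 library, where the scale understates changes, and the next lowest of the block was 0.22 in S100a1. In the deposited records S100a1 and S100a13 are read away from each other from starts 105 bases apart, although RefSeq starts S100a13 at 90514233, inside the S100a1 record. Their differences were 0.22 and 0.41. In the second block, S100a11 rose by 0.88 and S100a10 fell by 0.69, and both records fit within 44.2 kb. S100a2, S100a3 and S100a5, which lie between S100a16 and S100a6, were under the filter. S100a5 was listed at 0 in every library, S100a2 was above 0 only in E17 whole lung, at 0.33 FPKM, and S100a3 read at most 1.16 FPKM.

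**Figure D3:**
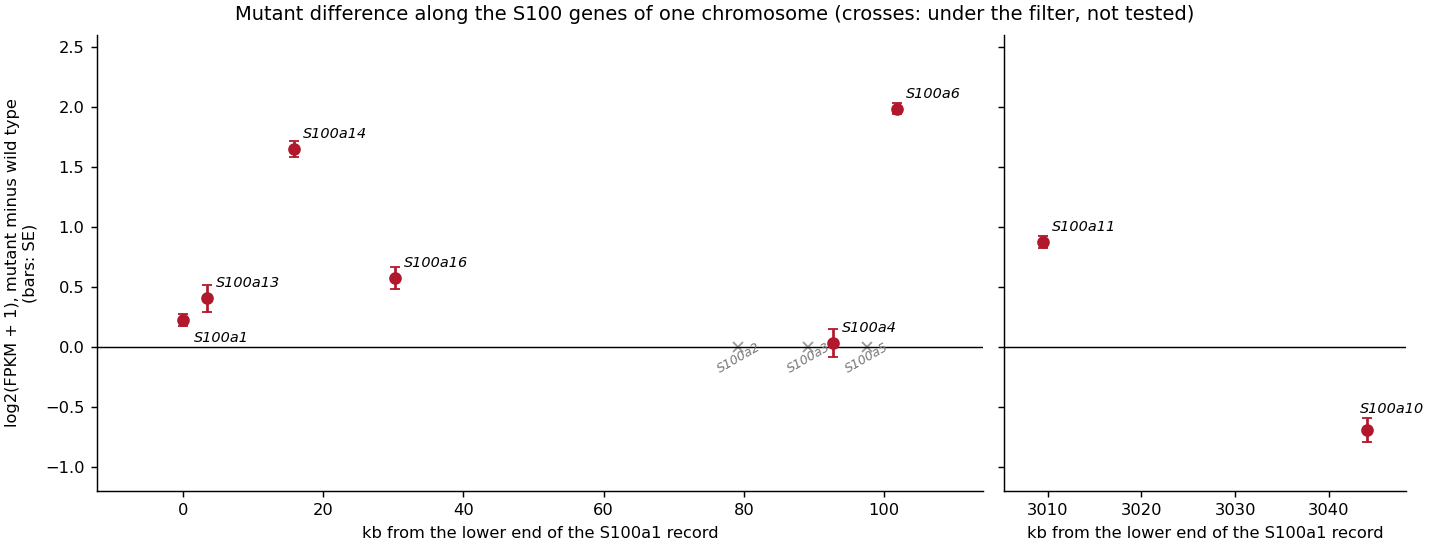
Log2(FPKM + 1) of the mutant minus the wild type at E16 (vertical axis; bars are SE, 2 against 2 libraries) for S100 genes of chromosome 3 by distance in kb from the lower end of the S100a1 record (horizontal axes; 1 panel per block). Crosses mark genes that were not tested. S100a6 (1.99) and S100a4 (0.03, on few fragments) are close neighbours with different values, as are S100a11 (0.88) and S100a10 (-0.69).

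The stage comparison asked what differed between E14 and E17. Every member that could be tested rose from E14 to E17, in TRAP and in whole lung. This fit took stage and fraction together over 4 libraries, so its error is the disagreement between the fractions. S100a14 and S100a4 entered the test only through the E17 libraries, so the filter set their direction. The other 6 tested members averaged at least 1 FPKM at both stages, and all 6 rose, while 9.13% of such records rose and 6.34% fell. With the one-sided records included, 9.51% of all tested records rose and 6.36% fell. With no filter on low values S100a6 alone passed, and the other 7 had adjusted p-values between 0.0504 and 0.0879. The median difference of the 6 members was 1.60, against 0.0016 over all such records. As in the mutant comparison, this contrast is not independent of how the members were chosen.

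The widest stage difference was that of S100a14. It read 0.796 FPKM in E14 TRAP and 0.500 FPKM in E14 whole lung, and 36.5 and 13.2 FPKM at E17 (log2 3.81, SE 0.28, limma adjusted p = 0.0042). E14 rested on 6.52 and 11.1 inferred fragments. The ratio of FPKM was 45.8 in TRAP, with a 95% counting interval of 21.2 to 99.2, and 26.4 in whole lung (14.4 to 48.2). Intervals of this kind cover counting error only. For this gene the bounds followed counting error less closely than for the other members, so its fragment numbers are less certain.

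S100a6 read 10.4 FPKM in E14 TRAP and 11.8 FPKM in E14 whole lung, and 49.8 and 48.9 FPKM at E17, so both fractions stood level at each stage. Its log2 difference was 2.05 (SE 0.11, limma adjusted p = 0.00181). S100a13 went from 5.93 and 8.25 FPKM to 28.6 and 25.1 FPKM (log2 1.80, SE 0.17, limma adjusted p = 0.00684). S100a1 went from 10.4 FPKM in TRAP and 7.42 FPKM in whole lung to 47.1 and 20.8 FPKM (log2 1.73, SE 0.19, limma adjusted p = 0.00901). In each of these genes both E17 libraries lay above both E14 ones.

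S100a11, S100a10 and S100a16, the top 3 members at E14 and at E17, rose as well. S100a11 went from 325 FPKM in TRAP and 255 FPKM in whole lung to 994 and 637 FPKM (log2 1.46, SE 0.11, limma adjusted p = 0.00452). S100a16 went from 27.5 and 60.6 FPKM to 86.7 and 142 FPKM (log2 1.42, SE 0.13, limma adjusted p = 0.00604). S100a10 went from 49.6 and 71.4 FPKM to 131 and 165 FPKM (log2 1.29, SE 0.10, limma adjusted p = 0.00421). S100a10 thus rose with stage and fell in the mutant, while S100a11 and S100a16 rose in both comparisons. With all libraries set to a common total the stage calls of S100a11 (adjusted p = 0.0951) and S100a10 (0.107) were lost.

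S100a4 went from 0.992 FPKM in TRAP and 0.812 FPKM in whole lung to 3.27 and 4.45 FPKM (log2 1.34, SE 0.21, limma adjusted p = 0.0214), on between 4 and 31.9 inferred fragments. S100g was under the filter and not tested. It read 0.264 and 0.216 FPKM at E14, on 1.00 and 1.99 fragments, and 1.74 and 0.592 FPKM at E17. The ratio in TRAP was 6.59, with a counting interval of 0.85 to 51.0, so a difference was not detectable at this depth. On FPKM + 1, all 6 members averaging at least 1 FPKM at both stages were at least 2-fold higher at E17, in TRAP and in whole lung. Of all such records, 4.0% and 3.89% were that much higher and 1.52% and 0.845% lower.

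The wild-type E16 TRAP mean lay between the E14 and E17 TRAP values in all 9 members. The wild-type mean was 2.34 times the E14 TRAP value in S100a1, 4.67 times in S100a6 and 2.41 times in S100a10. It was 2.24 times in S100a11, 2.36 times in S100a13, 28.1 times in S100a14 and 1.89 times in S100a16. In S100g and S100a4, both on few fragments, it was 1.61 and 1.26 times. From there to E17, S100a6 stood at 1.02 times and S100a10 at 1.10 times the E16 mean. S100a1, S100a13 and S100a4 went on by 1.94, 2.05 and 2.61 times. The steps of S100a11, S100a14 and S100a16 were 1.37, 1.63 and 1.67 times, and that of S100g, on few fragments, 4.08 times. Most of the difference of S100a6 and S100a10 between E14 and E17 TRAP was thus already present in the E16 libraries. These values carry no test, since E14 and E17 TRAP are single libraries.

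Alveolar markers moved with stage beside the S100 genes. Of 7 alveolar type 2 markers, Slc34a2 entered only through E17, and all 6 others rose, beside 9.13% of such records. The 7 went from sums of 553 and 117 FPKM in TRAP and whole lung at E14 to 12797 and 3433 FPKM at E17, with none at 0. Without Sftpc these sums were 153 and 48.4 FPKM at E14 and 962 and 300 FPKM at E17. Of 7 alveolar type 1 markers 5 of the 6 tested rose, from 138 and 92.4 FPKM to 776 and 491 FPKM, with none at 0. Cav1 held 55.9 and 221 FPKM of the whole lung sums at E14 and E17, and read 6.17 and 28.9 FPKM in TRAP. Of 8 endothelial markers 5 rose, from 21.7 and 218 FPKM to 40.7 and 401 FPKM. Their part in the S100 differences was not tested.

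Setting TRAP beside whole lung addresses which mRNAs stood higher or lower on the ribosomes of the labelled cells than in the organ. Which cells were labelled and how much of an mRNA was on ribosomes cannot be told apart here. S100a1 and S100a11 were higher in TRAP, S100a16 and S100a10 were higher in whole lung, and S100a4, S100a6, S100a13 and S100a14 did not pass. These 2 higher and 2 lower members of 8 tested stand beside 23.6% higher and 17.1% lower among all records. All 8 averaged at least 1 FPKM in both fractions, where 24.7% of records were higher and 14.5% lower. The median of the 8 was -0.09, against 0.05 over all records. The spread here is only the disagreement between stages.

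S100a1 read 10.4 FPKM in TRAP and 7.42 FPKM in whole lung at E14, and 47.1 and 20.8 FPKM at E17. TRAP was higher at both stages (log2 0.79, SE 0.19, limma adjusted p = 0.0227). S100a11 read 325 and 255 FPKM at E14 and 994 and 637 FPKM at E17 (log2 0.50, SE 0.11, limma adjusted p = 0.0205).

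S100a16 went the other way, at 27.5 FPKM in TRAP and 60.6 FPKM in whole lung at E14, and 86.7 and 142 FPKM at E17 (log2 -0.91, SE 0.13, limma adjusted p = 0.00469). Its E14 value was the 1 member difference of at least 2-fold at that stage, where 9.43% of records were that much lower and 6.01% higher. At E17, S100a1 and S100a14 were at least 2-fold higher, and none was that much lower, against 4.83% and 8.91% of records. S100a10 read 49.6 and 71.4 FPKM at E14 and 131 and 165 FPKM at E17 (log2 -0.42, SE 0.10, limma adjusted p = 0.0216). Both were nevertheless among the most abundant members in TRAP.

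S100a6 did not pass, with a log2 difference of -0.07 and a 95% interval of -0.35 to 0.21. S100a13 (-0.12, interval -0.55 to 0.31) and S100a4 (-0.11, interval -0.64 to 0.42) did not pass either.

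S100a14 was higher in TRAP at both stages, at 0.796 against 0.500 FPKM and 36.5 against 13.2 FPKM, and missed the threshold (log2 0.83, SE 0.28, limma adjusted p = 0.0665). It passed with a pseudocount of 0.1 FPKM (adjusted p = 0.0387). S100g, at 0.264 against 0.216 FPKM and 1.74 against 0.592 FPKM, was not tested. The calls for S100a1 and S100a11 were lost with no filter (adjusted p = 0.07 and 0.0594), those for S100a10 and S100a11 with eBayes without trend (0.0622 and 0.0525), that for S100a11 with limma-voom (0.0592) and that for S100a10 at E17 alone (0.12), and with all libraries rescaled to a common total S100a16 was the 1 member that still passed. The TRAP to whole lung ratio of S100a14 FPKM was 1.59 at E14, with a 95% counting interval of 0.60 to 4.18, and 2.76 at E17 (2.37 to 3.22), so the 2 intervals overlapped. On the log2(FPKM + 1) scale, which compresses the low E14 values, the difference was larger at E17 by 1.14 in a fit of all 8 libraries added after seeing the data (SE 0.14, limma adjusted p = 0.0482). Of the 9 members only this one passed there, where 0.351% of records passed higher and 0.563% lower.

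**Figure D4:**
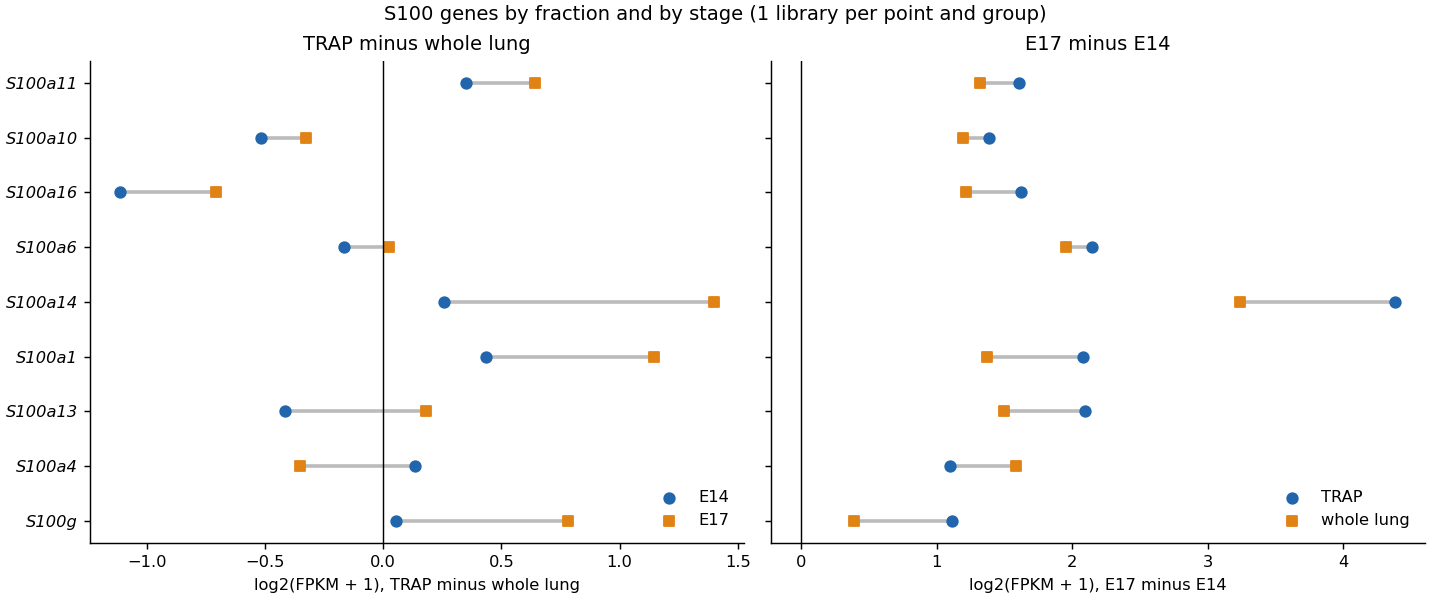
Log2(FPKM + 1) differences of the S100 genes, TRAP minus whole lung (one panel, a point for E14 and one for E17) and E17 minus E14 (the other panel, a point for TRAP and one for whole lung); each point compares 2 single libraries. S100a16 and S100a10 lie left of 0 at both stages in the first panel, and every point lies right of 0 in the second.

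The fractions were checked against markers. Of all records averaging at least 1 FPKM in both fractions, 24.7% were higher in TRAP and 14.5% lower. All 10 epithelial markers were higher in TRAP, with sums of 1963 and 2059.8 FPKM against 450.2 and 779.5 FPKM in whole lung. All 10 mesenchymal markers were lower, with sums of 95.1 and 114 FPKM against 1109.6 and 1395 FPKM. Of 10 leukocyte markers, 5 averaged at least 1 FPKM in both fractions and all 5 were lower, beside 14.5% of such records, while C1qa, Cd68 and Csf1r entered only through whole lung. The 10 had sums of 10.4 and 17.6 FPKM against 69.2 and 128 FPKM, Itgam at 0 in E14 TRAP and Ptprc at 0 in E17 TRAP. Their part in the lower TRAP level of S100a16 and S100a10 was not tested.

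The other S100 genes were low in this tissue. Of the 8, none passed the filter at E16 and 2 did in the comparison of fractions. These were S100a8 and S100a9, the paired calprotectin subunits of neutrophils and monocytes, and both were lower in TRAP. S100a8 averaged 1.22 ± 0.153 FPKM in TRAP and 9.60 ± 4.68 FPKM in whole lung (SD, n = 2 each; log2 -2.18, SE 0.28, limma adjusted p = 0.00374). S100a9 averaged 0.301 ± 0.23 and 5.84 ± 2.78 FPKM (log2 -2.34, SE 0.21, limma adjusted p = 0.00151) and entered only through whole lung. Neither passed between stages. Both stand beside the leukocyte markers given above, and the part of those cells was not tested.

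Annexins, the calcium-dependent membrane proteins that S100a6, S100a10 and S100a11 bind, were read from a fixed list of 12. In the mutant 9 were tested, 6 rose, 2 fell and 1 did not pass. Without Anxa8, which entered only through the mutant, 5 of 8 rose and 2 fell, again beside 16.6% and 14% of records. Anxa3 rose from 12.4 ± 0.861 to 55.9 ± 0.111 FPKM (SD, n = 2 each; log2 2.08, limma adjusted p = 3.58e-05). Anxa1, a partner of S100a11, rose by 0.51 and Anxa11 by 0.51. Anxa8 stood at 0.656 ± 0.0258 FPKM in the wild type and 9.18 ± 2.21 FPKM in the mutant (SD, n = 2 each).

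Anxa2, the partner of S100a10, was picked out after its values were seen. It rose from 187 ± 14.8 to 239.6 ± 2.57 FPKM in the mutant (SD, n = 2 each; log2 0.36, SE 0.06, limma adjusted p = 0.01), whereas S100a10 fell by 0.69. Between stages both rose, Anxa2 by 1.37 and S100a10 by 1.29. In TRAP against whole lung Anxa2 did not pass (log2 -0.06). With stage, 6 of 8 tested annexins rose and none fell, beside 9.13% and 6.34% of records averaging at least 1 FPKM at both stages, with values of 2.11 in Anxa1, 1.15 in Anxa4 and 0.93 in Anxa11 beside that of Anxa2. In TRAP, Anxa4 (1.56) and Anxa1 (0.97) were higher and Anxa6 (-0.65) and Anxa5 (-0.40) lower.

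**Figure D5:**
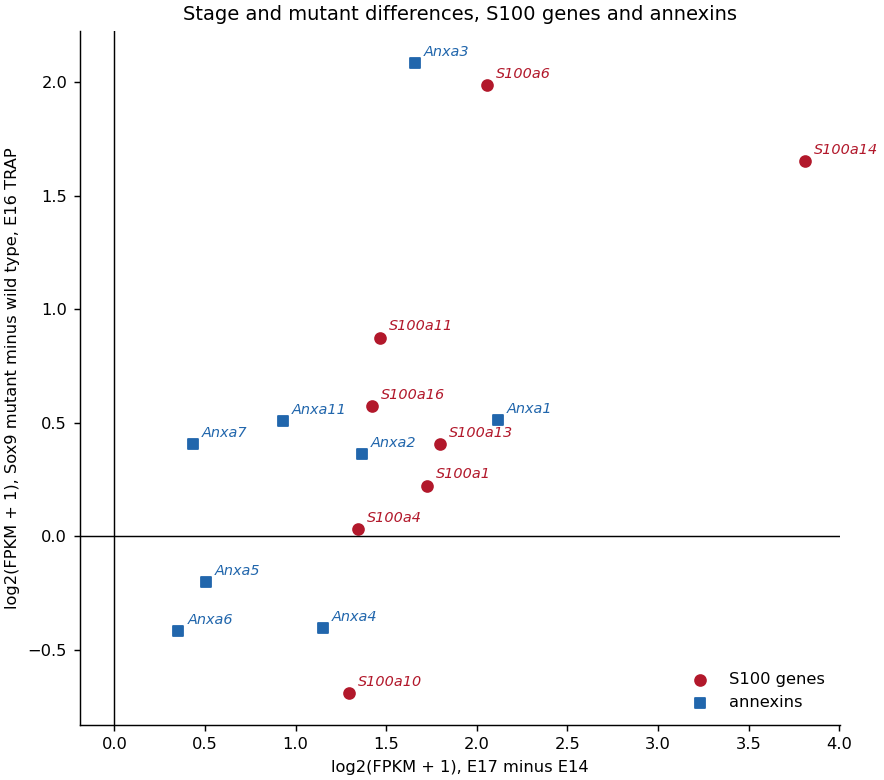
Log2(FPKM + 1) of E17 minus E14 (horizontal axis) against log2(FPKM + 1) of the mutant minus the wild type at E16 (vertical axis) for S100 genes and annexins tested in both. Every point lies right of 0. On the vertical axis S100a10 (1.29, -0.69) is below 0 and S100a6 (2.05, 1.99) is above 0.

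Other binding partners moved in both directions. Of 16, 13 were tested in the mutant, of which 5 rose, 3 fell and 5 did not pass, beside 17.4% and 14.3% of all tested records. Fgf1, the growth factor released with S100a13, rose from 14.9 ± 2.16 to 33.2 ± 1.83 FPKM (SD, n = 2 each; log2 1.11, limma adjusted p = 0.000969). Myh9, the non-muscle myosin bound by S100a4, rose by 0.47 and Atp2a2, the calcium pump acted on by S100a1, by 0.29. Plat, the plasminogen activator that the S100a10 complex binds, fell by 1.37, having entered only through the wild type. Between stages 4 of 13 rose and 3 fell, beside 9.51% and 6.36% of records, with 2.86 in Fgf1, 2.96 in Ager, the receptor for several S100 proteins and itself a marker of alveolar type 1 cells, -0.56 in Cacybp and -0.45 in Atp2a2. In TRAP 4 of 13 were higher and 2 lower, beside 23.6% and 17.1% of records, with 1.84 in Ager, 0.82 in Bsg, -1.05 in Plat and -0.61 in Ahnak.

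EF-hand proteins outside the family went both ways in the mutant. Of 18, 16 were tested there, of which 3 rose, 4 fell and 9 did not pass. The shares of all records given for the binding partners apply to this list and the next as well. Capns1, the small calpain subunit, rose by 0.31, while Chp1 fell by 0.55 and Rcn3 by 0.37. Between stages 2 rose, Sri by 0.53 and Capns1 by 0.42, none fell and 14 did not pass. In TRAP 4 were higher and 3 lower, with 0.51 in Calm2, 0.49 in Pef1, -0.67 in Rcn1 and -0.48 in Capns1.

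Genes that act with S100g in calcium transport were read from a list of 10. In the mutant 4 were tested, and Trpv6, the calcium entry channel of intestinal epithelium, rose from 2.11 ± 0.118 to 4.41 ± 0.319 FPKM (SD, n = 2 each; log2 0.80, limma adjusted p = 0.00216). Atp2b1, the plasma membrane calcium pump, rose by 0.48 (limma adjusted p = 0.0026). Atp2b4 (0.25) and Rxra (0.08) did not pass. Between stages none of the 4 tested passed. In TRAP, Trpv6 was higher (1.00), having entered only through TRAP, Rxra (-0.61) and Atp2b4 (-1.03) were lower, and Atp2b1 (0.05) did not pass.

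Genes with profiles most like those of 3 members were named by Pearson r of log2(FPKM + 1) over the 8 libraries, among 8503 records. The 3 members were those with the widest range, S100a14, S100a6 and S100a1. S100a14 was closest to Fgf1 (r = 0.996), Oxr1 (0.996) and Sri (0.993). S100a6 was closest to Sat1 (0.994), Pde8b (0.992) and Osbpl5 (0.990). S100a1 was closest to Pgm2 (0.994), Aga (0.992) and Oaz2 (0.982). Pde8b, which codes for a phosphodiesterase, read 15.2 and 12.8 FPKM in the mutant and between 0.305 and 3.50 FPKM in the other 6 libraries. These correlations describe 8 libraries that share stages and preparations. Among the members themselves, r ranged from -0.16, between S100g and S100a10, to 0.99, between S100a11 and S100a14.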

How the data were processed

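RNA-seq of 8 embryonic mouse lung libraries was used, grouped by title. The authors deposited FPKM values with lower and upper confidence bounds for each record, per the file headers. The submitters' processing notes name TopHat2 2.0.14, Bowtie2 2.2.3, Cufflinks 2.2.1, Cuffnorm and the build mm10. The sources used here do not say how library totals were set, and no further scaling was applied.

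Fragments behind a value were computed from its confidence bounds and are less certain for S100a14. Values with a pseudocount of 1 FPKM were tested as log2 in limma 3.58.1 (R 4.3.3), keeping records that averaged at least 1 FPKM. The eBayes step used a trend, tests were two-sided, and Benjamini-Hochberg adjusted p-values were read at 0.05. The mutant fit used the 4 E16 libraries (2 residual degrees of freedom, 3.73 prior). Fraction and stage were additive terms of 1 fit over the other 4 libraries (1 residual degree of freedom, 4.47 prior). Single libraries were compared at 2-fold with no test. The steps were tested on simulated data. Alternatives covered the pseudocount, filter, scaling, eBayes trend, limma-voom, libraries left out and the libraries fitted.

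The members and lists were chosen with earlier results of these data known. Every member is named; of each other list of calcium or S100 genes up to 4 genes with the smallest p in a comparison are named, and of the genes most like a member the 3 highest by r with a mean of at least 5 FPKM. Anxa2 in the mutant and fraction comparisons, and Pde8b's values, were chosen after they were seen. One gene that this rule names in the list of other EF-hand proteins is not reported here.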

Additional observations from a re-analysis of the deposited data

Results flagged for a closer look

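The difference between TRAP and whole lung was compared between E14 and E17 as an interaction of stage and fraction in 1 limma fit of all 8 libraries, an alternative chosen after seeing the data, in which the E16 replicates give the spread. S100a14 was the 1 of 9 members that passed. TRAP minus whole lung was 0.26 at E14 and 1.40 at E17, a difference of 1.14 on the log2(FPKM + 1) scale (SE 0.14, limma adjusted p = 0.0482), and 0.914% of all records passed. That scale compresses the E14 values of 0.796 FPKM in TRAP and 0.500 FPKM in whole lung. The ratios of FPKM were 1.59 at E14 (95% counting interval 0.60 to 4.18) and 2.76 at E17 (2.37 to 3.22), and these intervals overlap.

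In 3 members the single libraries pointed opposite ways at the 2 stages, and none of these interactions passed. S100a13 stood at -0.42 at E14 and 0.18 at E17, a difference of 0.60 (SE 0.23, limma adjusted p = 0.237). S100a4 stood at 0.14 and -0.35, a difference of -0.49 (SE 0.20, limma adjusted p = 0.259). S100a6 stood at -0.17 and 0.03, a difference of 0.19 (SE 0.09, limma adjusted p = 0.304). S100a1 (0.71, limma adjusted p = 0.0634) and S100g (0.73, limma adjusted p = 0.232) differed by more, with the same sign at both stages, and did not pass either.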

How the results depend on the processing

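In the mutant comparison 8 members passed, beside 17.4% of all tested records higher and 14.3% lower. S100g, 1 of these 8, entered only through the mutant, so the filter set its direction. Between 7 and 8 passed under the alternatives other than rescaling and leaving out 1 library, beside 10.2% to 22.9% higher and 8.06% to 19.7% lower. Rescaling to a common total left 2, S100a6 and S100g, both higher, beside 1.41% higher and 0.489% lower. A group left with 1 library is assumed to vary like the other. Rescaling shifted the all-record median to 0.41, with 225 calls, 167 of them higher, against 3755 calls with 2063 higher. With records under 200 bases left out first, 2709 of 3969 calls were higher, and with centring on the median 1749 of 4085. S100a4, which did not pass, changed sign to -0.0169 with centring. With 1 library left out it ranged from -0.0451 (without wild-type replicate 2) to 0.1072 (without wild-type replicate 1), and was -0.0049 without mutant replicate 1. S100a13 was also lost with no filter (adjusted p = 0.102), centring (0.0542), eBayes without trend (0.0629) and all 8 libraries in 1 fit (0.0539), and S100a1 with limma-voom (0.0726).

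The deviations of same-numbered E16 libraries had a correlation of 0.007 over 11872 records. A correlation over all records cannot tell whether such libraries shared a litter or a preparation. With the replicate number as a block, 8 members passed, 7 higher (S100g among them) and 1 lower. The block lowered the SE of S100a10 (0.10 to 0.05), S100a16 (0.09 to 0.05) and S100a13 (0.11 to 0.09), and not of the other members. Of all tested records 16.2% were higher and 13.3% lower there, 3503 in all.

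In TRAP against whole lung 4 members passed, beside 23.6% of all tested records higher and 17.1% lower. No filter left 2, rescaling to a common total 1 and eBayes without trend 2. Otherwise between 4 and 6 passed, though not always the same members (limma-voom lost S100a11 and added S100a14). Rescaling shifted the all-record median to -0.29, with 547 of 3410 calls higher, against 2910 of 5015. Limma-voom gave 1783 of 4123. At E14 alone S100a4 stood at 0.14, and at E17 alone S100a6 stood at 0.026 and S100a13 at 0.18, each with the sign reversed and none passing. Between stages 8 members passed, beside 9.51% of all tested records higher and 6.36% lower. S100a14 and S100a4, among these 8, entered only through E17, so the filter set their direction. With no filter 1 passed, where 52 records passed in all. Otherwise between 6 and 9 passed, beside 4.2% to 25.5% higher and 1.43% to 23.2% lower. Rescaling shifted the all-record median to -0.23, with 517 of 1125 calls higher against 1172 of 1955. With records under 200 bases left out first it was 1263 of 2802. S100a4 and S100g outside the mutant rested on few fragments, which limits what could be detected for them. The cause of these shifts was not tested.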
